A study of Mus musculus with 12 samples.

Results

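The serpin family of protease inhibitors was followed across sorted cell populations of the mouse fetal liver. Its members were taken by gene name: every gene whose symbol starts with *Serpin*, a clade letter from a to i and a number, with names marked -ps left out. This gave 62 serpin genes of 38127 genes in the counts, and 5 names with -ps were set aside. Clade a held 25 of the genes and clade b 26. Clade e held 3 genes, clades f and i held 2 each, and clades c, d, g and h held 1 each.

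A serpin works once. It offers a flexible reactive centre loop as bait to a protease, and after the cut it changes shape and drags the protease into a dead, covalently bound complex that receptors of the LDL receptor family clear. Most clade a, c, d, f and g serpins are secreted into plasma, largely by hepatocytes, and restrain clotting, fibrin removal, complement and neutrophil proteases, whereas clade b serpins stay inside cells and guard them against their own or incoming proteases. Some members inhibit nothing: *Serpina6* and *Serpina7* carry corticosteroids and thyroid hormone, and *Serpinh1* is a collagen chaperone of the endoplasmic reticulum.

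RNA was sequenced from C57BL/6 embryos in 4 groups of 3 libraries, all sorted as Ter119-CD45- liver cells, so that cells bearing those red cell and leukocyte markers were excluded by the gate. At E14.5 the groups were CD324+ cells (the CD54+CD31- gate, rich in hepatoblasts), CD31+ cells (CD54+CD31+, endothelial) and P2 cells (CD54-CD31-Kit+CD24+), and the fourth group was the CD54+CD31- gate at E18.5. The study states independent litters for the E14.5 populations, and for E18.5 nothing says that the libraries came from separate litters, so that p-values then measure the spread between these samples only, which may be technical. No allele or treatment was involved. Libraries held 40714017 to 64368883 counts, and levels are given as CPM, that is counts scaled to library size over all 12 libraries together.

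In these bulk samples, fewer cells of a type and less RNA per cell cannot be told apart. The labelled cell types carried their defining markers: the summed hepatoblast markers, *Alb* and *Afp* among them, ran from 86851 to 99506 CPM in CD324+ cells, the summed endothelial markers, *Pecam1* and *Cdh5* among them, from 12401 to 13084 CPM in CD31+ cells, and the summed erythroid markers from 4410 to 4676 CPM in P2 cells. These markers were also counted at lower levels in the other E14.5 populations. Hepatoblast markers summed to 1052 to 1194 CPM in CD31+ and 844 to 855 CPM in P2 cells. Endothelial markers summed to 53.6 to 85.2 CPM in CD324+ and 101 to 552 CPM in P2 cells. Erythroid markers summed to 776 to 1244 CPM in CD324+ and 643 to 842 CPM in CD31+ cells. The E18.5 libraries held, in addition, lung epithelial markers at 11860 to 25230 CPM, against at most 256 CPM in any other library, and mesenchymal markers at 3993 to 4415 CPM, against at most 246 CPM. Replicate 1 of E18.5 stood apart from the other two, with 6921 CPM of hepatoblast markers against 48770 and 63515, and with the highest lung epithelial sum. For this reason the E18.5 results of serpins above 5 CPM are given with and without that library.

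The genes lie mostly in clusters. Of the clade a genes, 24 sit within 800 kb on mouse chromosome 12 (GRCm38, chr12:103614786-104414329), and *Serpina7* lies on X. Clade b is split between 11 genes on chromosome 1 and 15 on chromosome 13. Recent duplicates are nearly identical, and a share of their possible 50-base reads occurs in more than 1 gene: 79.3% for *Serpina1c*, 57.6% for *Serpina1a*, 34.6% for *Serpina1e* and 29.5% for *Serpina1b*. Levels of single *Serpina1* genes are therefore uncertain by whatever share of those reads was dropped or given to a neighbour.

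Zero counts needed a separate look. Among 992 protein-coding genes that lie inside the span of another gene on either strand, 975 (98.3%) had no count in any library, compared with 15.7% of 13886 genes that overlap none. *Serpind1* (heparin cofactor II, inside *Pi4ka*), *Serpina1d* (inside *Serpina1b*) and *Serpina3k* (inside *Serpina3m*) are such nested genes and had no count. *Serpinb3c*, of which 99.9% is covered by *Serpinb3b*, had none either. These 4 zeros are not read as absence of the transcripts. *Serpinb6a* (57.5% of its span covered by other genes), *Serpine3* (55.7%), *Serpina1b* (42.4%), *Serpina1c* (29.0%), *Serpina3m* (23.7%) and *Serpinc1* (18.1%) may be undercounted in all libraries.

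The *Serpina1* genes, which encode the mouse forms of the neutrophil elastase inhibitor alpha-1-antitrypsin, carry much of the comparison below, and their sequences show both how alike and where unlike they are. The coding sequences of the 4 genes *Serpina1a*, *Serpina1b*, *Serpina1c* and *Serpina1e* are 1239 bases long and were 96.3 to 98.5% identical in pairs (GENCODE vM21 transcripts). They differ at 71 of 1239 positions in all (5.73%), but at 18 positions (30.0%) within 1 stretch of 60 bases, coding bases 1101 to 1160 in exon 5, which includes the region of the reactive centre loop. The stretch is printed 5′ to 3′ on the coding strand, with the differing positions in capitals. It lies on the minus strand of GRCm38 at chr12:103853757-103853816 for *Serpina1a*, chr12:103728324-103728383 for *Serpina1b*, chr12:103895094-103895153 for *Serpina1c* and chr12:103947100-103947159 for *Serpina1e*.
Serpina1a: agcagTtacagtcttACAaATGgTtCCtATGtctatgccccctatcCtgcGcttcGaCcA
Serpina1b: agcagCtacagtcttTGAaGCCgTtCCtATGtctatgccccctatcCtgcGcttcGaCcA
Serpina1c: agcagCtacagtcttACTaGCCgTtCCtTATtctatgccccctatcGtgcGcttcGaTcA
Serpina1e: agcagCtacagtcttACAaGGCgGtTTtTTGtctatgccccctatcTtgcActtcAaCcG

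Their promoters also share sequence. RefSeq (GRCm38.p6) promoter windows were at hand for 52 of the 62 serpins, and the 250 bases before the annotated start are printed for the same 4 genes because their levels are compared at both ages. The longest unbroken run common to all 4 has 63 bases and is shown in capitals. It occurs in 4 of 32851 promoter windows of 300 bases on either strand, all of them these genes. Because the run was taken from these 4 promoters, its presence in them was fixed beforehand, and the count does not measure specificity. The run holds GGTTAAT, the left arm of the palindrome recognised by the hepatocyte factor HNF1, and TGTTTGC, a forkhead core. GGTTAAT was found in 1.81% of all windows and in 7 of 52 serpin genes, and TGTTTGC in 5.07% and in 9 of 52. Both serpin counts include the duplicates *Serpina1a* to *Serpina1e*, which are not separate cases. Besides these, only *Serpina7* and *Serpinb8* held GGTTAAT, and only *Serpina3f*, *Serpinb3d*, *Serpinb6b* and *Serpinb9* held TGTTTGC. The complete HNF1 palindrome occurred in no serpin window and in 0.00913% of all windows. Matches were sought on both strands and are descriptions of letters, not of binding. The windows lie on the minus strand at chr12:103863620-103863869 (*Serpina1a*), chr12:103738190-103738439 (*Serpina1b*), chr12:103904951-103905200 (*Serpina1c*) and chr12:103956898-103957147 (*Serpina1e*).
Serpina1a: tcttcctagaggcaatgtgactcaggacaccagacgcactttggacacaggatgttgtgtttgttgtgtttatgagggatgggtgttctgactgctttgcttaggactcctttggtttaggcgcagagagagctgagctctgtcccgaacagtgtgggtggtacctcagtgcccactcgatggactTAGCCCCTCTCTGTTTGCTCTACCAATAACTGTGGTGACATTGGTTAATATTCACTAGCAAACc
Serpina1b: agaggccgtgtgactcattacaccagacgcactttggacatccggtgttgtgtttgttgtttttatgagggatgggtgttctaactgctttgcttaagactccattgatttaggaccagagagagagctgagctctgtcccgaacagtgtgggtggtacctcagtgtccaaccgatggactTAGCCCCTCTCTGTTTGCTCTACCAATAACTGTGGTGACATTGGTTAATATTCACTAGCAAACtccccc
Serpina1c: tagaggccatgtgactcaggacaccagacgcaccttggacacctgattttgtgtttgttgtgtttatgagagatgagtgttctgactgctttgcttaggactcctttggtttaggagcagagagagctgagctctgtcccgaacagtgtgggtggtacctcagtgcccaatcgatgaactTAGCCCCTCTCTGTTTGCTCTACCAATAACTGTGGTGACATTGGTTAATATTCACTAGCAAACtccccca
Serpina1e: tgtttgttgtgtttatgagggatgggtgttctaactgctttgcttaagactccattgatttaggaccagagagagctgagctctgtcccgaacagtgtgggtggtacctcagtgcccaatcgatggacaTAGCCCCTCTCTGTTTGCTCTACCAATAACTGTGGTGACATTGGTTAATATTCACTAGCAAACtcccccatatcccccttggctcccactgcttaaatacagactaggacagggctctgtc

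Serpin transcripts were abundant in hepatoblast-rich cells and scarce in P2 cells. The 62 genes together took 0.927 to 1.10% of all counts in CD324+ libraries, 0.0914 to 0.109% in CD31+ libraries and 0.0145 to 0.0183% in P2 libraries. At E18.5 the shares were 0.159%, 0.419% and 0.505% in replicates 1, 2 and 3. In CPM the sums averaged 13122 ± 671 in CD324+, 942 ± 105 in CD31+, 159 ± 22.6 in P2 and 3091 ± 1621 at E18.5 (SD, n = 3 each). The 3 populations of E14.5 did not overlap, and replicate 1 of E18.5 (1309 CPM) lay far below the other two (3488 and 4477 CPM).

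The make-up of the family also differed between the groups. Clade a supplied 72.1 to 73.3% of serpin CPM in CD324+ libraries and clade f, which lies outside the clusters, 17.3 to 18.1%. In CD31+ libraries *Serpinh1*, the only member of clade h, made up 61.0 to 65.6%, and clade b 15.3 to 17.2%. P2 libraries had 48.3 to 54.2% clade a and 17.5 to 18.3% clade b. At E18.5, replicate 1 was led by clade b (34.8%) and clade h (28.5%), whereas replicates 2 and 3 were led by clade a (61.9% and 65.0%).

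**Figure D1:**
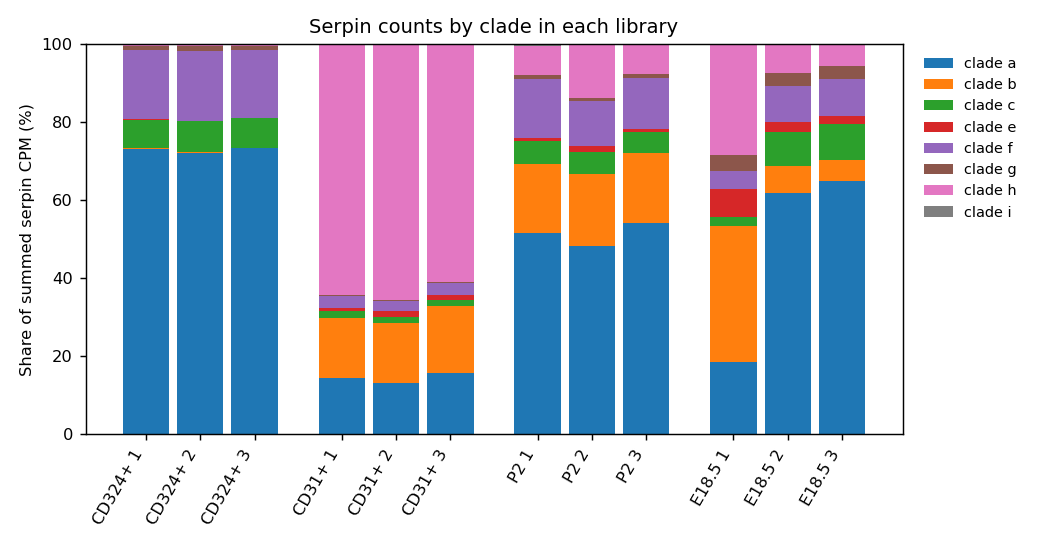
Share of the summed serpin CPM (vertical axis, %) that each clade supplied in each of the 12 libraries (bars). Clade a fills 72.1 to 73.3% of the CD324+ bars, clade h 61.0 to 65.6% of the CD31+ bars, and E18.5 replicate 1 differs from replicates 2 and 3.

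Of the 62 genes, 50 had at least 1 count and 12 had none. A mean of at least 20 CPM in some group was reached by 18 serpins, a further 5 reached 5 CPM, and 27 peaked at or below 3.99 CPM. Of the 18, 9 were highest in CD324+ cells, 2 in CD31+ cells, 7 at E18.5 and 0 in P2 cells. Over all 50 genes with counts, too, the P2 group was highest for 0. The share of all genes that are highest in each group was not counted.

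**Figure D2:**
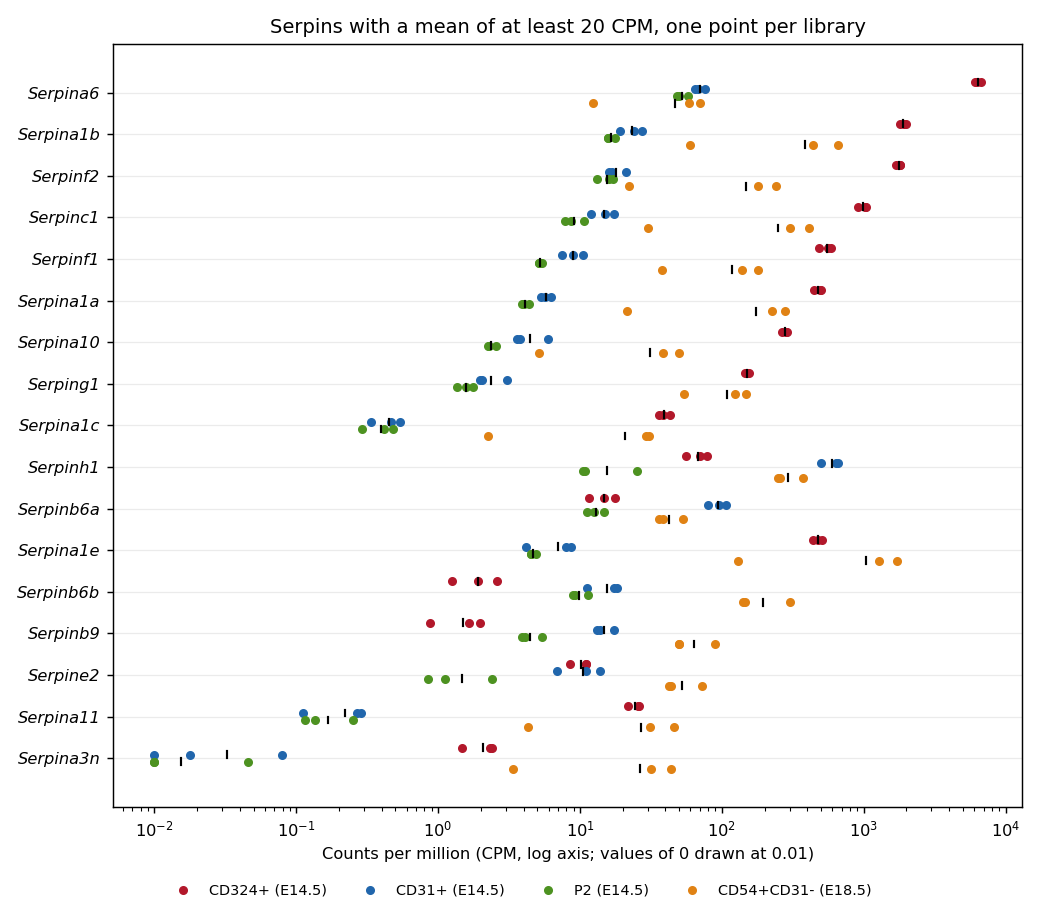
CPM (horizontal log axis) of 17 serpins that reached a mean of 20 CPM, with 1 point per library coloured by group and a black tick at the group mean. For 9 secreted liver serpins the CD324+ mean is the highest, with P2 and CD31+ points far to its left, and E18.5 replicate 1 lies to the left of replicates 2 and 3 for secreted serpins and to the right for *Serpinb6b*, *Serpinb9* and *Serpine2*.

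Of the 2 hormone carriers, *Serpina6*, corticosteroid-binding globulin, was also the most abundant serpin of CD324+ cells, at 6039, 6325 and 6691 CPM, which was 48.4% of all serpin CPM there. It measured 76.1, 67.8 and 65.1 CPM in CD31+ libraries and 48.5, 58.1 and 50.2 CPM in P2 libraries. Per kilobase of countable exon, its CD324+ level (3607 CPM per kb) stood above those of the next genes, *Serpina1b* (784) and *Serpinf2* (763), which overlapped each other in CPM between libraries. *Serpina7*, thyroxine-binding globulin, averaged 12.3 ± 2.86 CPM in CD324+ cells and 0.0813 ± 0.0947 and 0.123 ± 0.0762 CPM in CD31+ and P2 cells (SD, n = 3).

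The inhibitors of clotting and of fibrin removal were high in the same cells. *Serpinc1*, antithrombin, which blocks thrombin and factor Xa, had 908, 1042 and 1028 CPM in CD324+ libraries, 17.2, 15.1 and 11.9 in CD31+ libraries and 8.64, 10.7 and 7.80 in P2 libraries. *Serpina10*, the protein Z-dependent inhibitor of factor Xa, had 265, 283 and 287 CPM in CD324+, 5.93, 3.60 and 3.76 in CD31+ and 2.55, 2.29 and 2.25 in P2 libraries. *Serpinf2*, alpha-2-antiplasmin, the main plasmin inhibitor, had 1701, 1814 and 1804 CPM in CD324+, 21.1, 16.9 and 16.1 in CD31+ and 16.97, 16.1 and 13.3 in P2 libraries. In all 3 genes every CD324+ library lay above every other E14.5 library. P2 and CD31+ libraries overlapped for *Serpinf2* alone.

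The other secreted liver serpins had the same order of group means at E14.5. *Serpina1b* had 1790, 1922 and 1970 CPM in CD324+ libraries, 27.2, 23.8 and 19.1 in CD31+ libraries and 15.8, 17.7 and 15.8 in P2 libraries. *Serpina1a* had 446, 491 and 499 CPM in CD324+, 5.32, 5.63 and 6.29 in CD31+ and 3.90, 4.37 and 4.01 in P2 libraries. *Serpina1e* had 440, 509 and 477 CPM in CD324+, 8.71, 7.93 and 4.18 in CD31+ and 4.52, 4.87 and 4.49 in P2 libraries. CD324+ libraries did not overlap the others for any of the 3 genes, P2 and CD31+ libraries overlapped for *Serpina1e*, and *Serpina1b* was the highest of these paralogues in every E14.5 library. *Serpina1c* had 35.8, 38.7 and 43.3 CPM in CD324+ cells and at most 0.539 CPM elsewhere at E14.5, and *Serpina11* had 21.7, 26.0 and 25.6 CPM in CD324+ cells and at most 0.287 CPM elsewhere at E14.5.

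*Serpinf1*, pigment epithelium-derived factor, a secreted protein that limits vessel growth, had 487, 592 and 561 CPM in CD324+ libraries, 10.6, 8.93 and 7.495 in CD31+ libraries and 5.37, 5.16 and 5.18 in P2 libraries. *Serping1*, the C1 inhibitor that shuts off the first complement proteases and plasma kallikrein, had 145, 150.1 and 154 CPM in CD324+, 2.05, 3.08 and 1.98 in CD31+ and 1.56, 1.35 and 1.77 in P2 libraries. For both genes, CD324+ libraries did not overlap the other 2 populations.

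CD31+ cells were compared with CD324+ cells to ask how endothelium and hepatoblasts of the same liver differ in their inhibitors. Of 62 serpins, 31 passed the low count filter and were tested. With edgeR's quasi-likelihood test and an adjusted p below 0.05, 12 were higher in CD31+ cells, 15 were lower and 4 were not called, beside 65.6% of all 15461 genes called (31.7% higher and 34.0% lower). The median log2 fold change of the tested serpins was -1.40, against -0.031 over all genes.

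The 15 lower genes were the secreted liver serpins named above together with *Serpina1f*, *Serpina3n* and *Serpina5* (protein C inhibitor). For the 11 of them that averaged over 20 CPM in CD324+ cells, log2 fold changes lay between -5.93 (*Serpinf1*) and -6.79 (*Serpina11*). For *Serpina6* the value was -6.52 ± 0.13 (SE, adjusted p = 1.4e-10). Leaving out CD31+ replicate 3 moved *Serpina7* from -7.14 to -8.78 and *Serpina3n* from -5.83 to -7.53, both still called.

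*Serpinh1*, the chaperone also called HSP47 that binds folded procollagen, was the leading serpin of CD31+ cells. It had 638, 663 and 501 CPM there, 55.5, 78.9 and 70.5 CPM in CD324+ libraries and 10.8, 25.4 and 10.6 CPM in P2 libraries. The 3 populations did not overlap. The log2 fold change of CD31+ against CD324+ cells was 3.13 ± 0.32 (SE, adjusted p = 1.1e-05), and per kilobase its CD31+ level (246 CPM per kb) exceeded those of *Serpina6* (39.6) and *Serpinb6a* (28.8).

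All 6 tested clade b serpins were higher in CD31+ than in CD324+ cells. *Serpinb6a*, an intracellular inhibitor of cathepsin G, had 106, 95.9 and 80.2 CPM in CD31+ libraries against 11.5, 14.8 and 17.8 in CD324+ libraries (log2 fold change 2.67 ± 0.18, SE, adjusted p = 3.6e-07). *Serpinb6b* had 18.1, 17.3 and 11.1 CPM against 1.24, 2.58 and 1.90, and *Serpinb9*, an inhibitor of granzyme B, 13.3, 17.4 and 13.9 CPM against 0.877, 1.98 and 1.65. For *Serpinb6b* the log2 fold change was 3.02 and for *Serpinb9* 3.30, both without overlap between the groups. *Serpinb2* (plasminogen activator inhibitor 2) was higher by 3.45 and *Serpinb8* (a furin inhibitor) by 4.22 on the log2 scale, at 7.73 and 3.48 CPM on average in CD31+ cells. The summed macrophage markers were 1373 to 1648 CPM in CD31+ and 173 to 304 CPM in CD324+ libraries, a sum carried by *Mrc1*. Of the 11 macrophage markers tested, 7 were lower in CD31+ cells and 1 was higher, beside 34.0% and 31.7% of all genes. The summed megakaryocyte markers were 309 to 550 CPM against 41.7 to 53.0 CPM, with 8 of 8 higher, beside 31.7% of all genes. The part of such cells in these clade b values was not tested.

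The sixth, *Serpinb1a*, an inhibitor of neutrophil elastase, was uneven. It had 4.94, 11.1 and 26.0 CPM in CD31+ libraries and 0.396, 5.04 and 0.395 CPM in CD324+ libraries, so that the groups overlapped, and its log2 fold change of 2.88 (adjusted p = 0.021) became 1.98 without CD31+ replicate 3 (adjusted p = 0.11) and 5.04 without CD324+ replicate 2. Without CD324+ replicate 1 or 3 it was not called either (adjusted p = 0.061 and 0.064). The summed granulocyte and mast cell markers, *Mpo* and *S100a8* among them, ran in the same order: 130, 246 and 533 CPM in CD31+ libraries and 10.4, 106 and 9.99 CPM in CD324+ libraries. Of the 9 markers tested, 3 were higher and 1 lower in CD31+ cells, beside 31.7% and 34.0% of all genes. *Fcer1a* averaged at most 0.0264 CPM in any group. The part of granulocytes and mast cells in the *Serpinb1a* result was not tested.

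A block of *Serpina3* genes was also higher in CD31+ cells. *Serpina3g*, an intracellular inhibitor of cathepsins, averaged 11.1 ± 2.16 CPM in CD31+ libraries and 0.137 ± 0.0726 CPM in CD324+ libraries (SD, n = 3), a log2 difference of 6.28 ± 0.63 (SE, adjusted p = 9.4e-06). *Serpina3f* averaged 5.99 ± 1.84 CPM against 0.108 ± 0.0704 CPM, a log2 difference of 5.72. *Serpina3i* had 202, 227 and 272 counts in CD31+ libraries and 0 counts in every CD324+ library, so that it was at least 143-fold higher with 3 counts over the group as the limit, and *Serpina3h*, which is annotated as a transcribed pseudogene, was at least 59.1-fold higher by the same limit. *Serpina3b* was higher by 3.51 on the log2 scale. All 5 were without overlap between the groups, but such separation was not counted over all genes. With 0 counts in CD324+ cells, *Serpina3h* and *Serpina3i* passed the low count filter through other groups, so a lower call was not possible. *Serpina3f* and *Serpina3g* also had few counts in CD324+ cells. Of their possible 50-base reads, 10.6% for *Serpina3f*, 15.5% for *Serpina3g*, 21.9% for *Serpina3h* and 15.9% for *Serpina3i* occur in more than 1 gene, mostly in one another or a *Serpina3* pseudogene, so that these levels are not fully separate.

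In contrast, *Serpine2* and *Serpine3* of clade e were not called between CD31+ and CD324+ cells. *Serpine2*, protease nexin-1, had 6.88, 13.7 and 11.1 CPM in CD31+ libraries and 8.46, 10.95 and 11.1 CPM in CD324+ libraries, a log2 difference of 0.05 ± 0.34 (SE, adjusted p = 0.91). *Serpini1*, the neuronal inhibitor neuroserpin, was not called either.

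P2 cells were compared with CD324+ cells to show what separates the Kit+ cells from the hepatoblast-rich population. Among the 31 serpins tested, 2 were higher in P2 cells, 19 were lower and 10 were not called, beside 70.0% of all genes called (33.8% higher and 36.1% lower). The median log2 fold change of the serpins was -3.20 and that of all genes -0.011. The 11 secreted liver serpins above 20 CPM in CD324+ cells had log2 fold changes between -6.60 (*Serping1*) and -7.19 (*Serpina11*), and for *Serpina6* the difference was -6.94 ± 0.13 (SE, adjusted p = 9.1e-11). The 17 hepatoblast markers tested were all lower in the same comparison, with a median of -6.78. *Serpina5*, with 0 counts in every P2 library, could only be called lower and was at least 32.9-fold lower. *Serpina3n* was at -6.96, or -9.67 without P2 replicate 1.

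The 2 serpins higher in P2 cells were both of clade b. *Serpinb6b* had 8.96, 11.4 and 9.26 CPM in P2 libraries, every one above the CD324+ values (2.36 ± 0.27 on the log2 scale, SE, adjusted p = 2.1e-05). *Serpinb9* had 3.93, 5.39 and 4.08 CPM, likewise above all CD324+ libraries (1.55 ± 0.27, SE, adjusted p = 0.00043). *Serpinb6a*, at 12.6, 14.8 and 11.2 CPM, overlapped CD324+ cells and was not called at -0.21 (adjusted p = 0.29), but it was called lower, at -0.47, with the authors' normalization factors, which moved the median of all genes by -0.26. *Serpinh1* was lower in P2 than in CD324+ cells (-2.15 ± 0.32), as was *Serpine2* (-2.82 ± 0.38), which had 1.13, 2.41 and 0.847 CPM in P2 libraries (SE, adjusted p = 0.00013 and 7.2e-05). *Serpinb1a* was lower at -3.20 (adjusted p = 0.033), but at -0.96 without CD324+ replicate 2 (adjusted p = 0.42), the library with the high granulocyte sum, and the call was also lost without P2 replicate 1 or 3 (adjusted p = 0.081 and 0.064).

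Against CD31+ cells, P2 cells had 22 serpins lower, 0 higher and 9 not called of the 31 tested, beside 73.7% of all genes called (34.3% higher and 39.4% lower). With edgeR, 0 serpins were higher at an unadjusted p below 0.05 as well, and DESeq2 also gave 0. Without CD31+ replicate 3, 1 was called higher, *Serpina7*, at 2.09. The median log2 fold change was -1.13, against -0.13 over all genes. The largest differences among serpins above 20 CPM were those of *Serpinh1* (-5.28 ± 0.36, SE, adjusted p = 4.6e-07), *Serpinb6a* (-2.88 ± 0.18, adjusted p = 2.5e-07) and *Serpine2* (-2.86 ± 0.38, adjusted p = 5.7e-05). The secreted liver serpins above 20 CPM in CD324+ cells, low in both populations compared here, differed by at most -0.92 (*Serpina10*). In a fit of all 12 libraries together, every call of a secreted liver serpin was lost, as was that of *Serpinb6b*. The secreted ones were *Serpina10*, *Serpina1a*, *Serpina1b*, *Serpina1e*, *Serpina6*, *Serpinc1*, *Serpinf1* and *Serping1*. The calls of *Serpina1e*, *Serpina6*, *Serping1* and *Serpinb6b* were also lost without single libraries (adjusted p = 0.054 to 0.16). For *Serpina1e* and *Serpinb6b* the groups overlapped. P2 replicate 2 had the highest *Serpinh1* of the 3 P2 libraries, 25.4 CPM. That library also had the highest endothelial marker sum of the 3, 552 CPM against 101 and 162. In P2 against CD324+ cells, 14 of 16 endothelial markers were higher, beside 33.8% of all genes. The part of endothelial transcripts in the *Serpinh1* value of P2 replicate 2 was not tested. *Serpina3g* was at -5.55, or -6.71 without this library. *Serpinb2* was at -3.11, or -3.94 without it, and *Serpina3f* at -5.00, or -5.84 without it and -4.38 without P2 replicate 1. *Serpinb1a* was at -6.08, or -5.21 without CD31+ replicate 3.

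For a set of 12 secreted serpins, percentages of *Alb* CPM differed less between the E14.5 populations than for *Serpinh1*, *Serpinb6a* and *Serpine2*. The 12 were the 9 serpins over 20 CPM that were highest in CD324+ cells, with *Serpina1e*, *Serpina11* and *Serpina3n* added. The set was thus chosen largely by level, in the population where *Alb* was also highest at E14.5. *Serpinh1* and *Serpinb6a* were highest in CD31+ cells, so their contrast with the set was partly fixed by this choice. Of these 12, 6 had percentages of *Alb* CPM that overlapped between all 3 populations, and such overlap was not counted over all genes. *Serpina6* amounted to 13.6 to 14.7% of *Alb* CPM in CD324+ libraries, 14.0 to 15.7% in CD31+ libraries and 12.3 to 15.4% in P2 libraries. *Serpinf2* amounted to 3.87 to 4.15%, 3.45 to 4.35% and 3.41 to 4.30%, and *Serpina1b* to 4.12 to 4.37%, 4.11 to 5.60% and 4.01 to 4.70%. The others that overlapped were *Serpina1c*, *Serpina11* and *Serpina3n*, the last with some libraries at 0. *Serpina1c* had 19 to 34 counts in CD31+ and 15 to 21 in P2 libraries, and *Serpina11* 7 to 16 and 5 to 12. At so few counts, overlap cannot show that a proportion was kept. For the remaining 6, CD324+ libraries lay apart from CD31+ libraries, from P2 libraries or from both. *Serpinf1* was apart in all 3 populations, with 1.19 to 1.27% in CD324+, 1.61 to 2.18% in CD31+ and 1.33 to 1.37% in P2 libraries. *Serpina10* had 0.607 to 0.646% in CD324+ against 0.747 to 1.22% in CD31+ libraries. *Serpinc1* had 2.20 to 2.23% against 2.55 to 3.55%, *Serpina1a* 1.05 to 1.09% against 1.10 to 1.35%, and *Serping1* 0.322 to 0.355% against 0.422 to 0.639%, the last also apart from P2 libraries (0.359 to 0.455%). *Serpina1e* had 1.02 to 1.09% in CD324+ and 1.15 to 1.29% in P2 libraries. In these 6 genes the mean percentage of CD31+ libraries was 1.13 to 1.54 times that of CD324+ libraries. *Serpinh1* showed no such proportion, with 0.135 to 0.169% in CD324+, 108 to 138% in CD31+ and 2.71 to 6.72% in P2 libraries. Nor did *Serpinb6a*, with 0.028 to 0.0381%, 17.2 to 21.9% and 2.88 to 3.93%. *Serpine2*, protease nexin-1, was not among the 12 and did not keep a proportion either, with 0.0207 to 0.0238%, 1.42 to 2.85% and 0.218 to 0.640%. What these proportions come from was not tested.

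**Figure D3:**
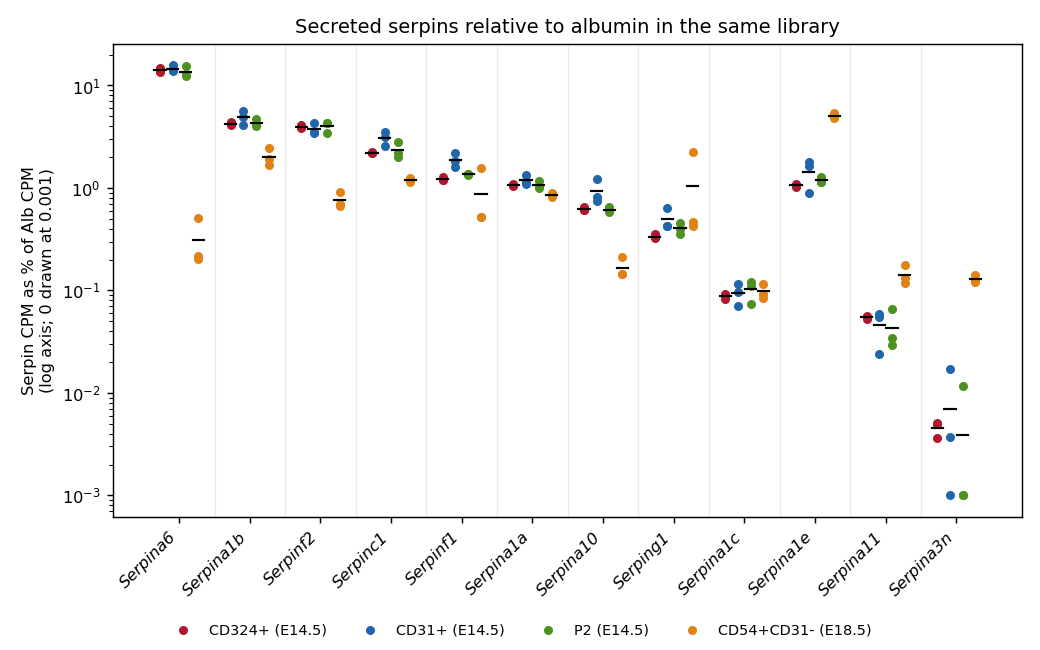
CPM of 12 secreted serpins as a percentage of *Alb* CPM in the same library (vertical log axis), with 1 point per library and a line at the group mean. For *Serpina6* the E14.5 points of all 3 populations lie between 12.3 and 15.7%, while the E18.5 points lie between 0.202 and 0.511%.

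Along the chromosome 12 cluster, some neighbouring genes peaked in the same group, and how often neighbouring genes in general do was not counted. From *Serpina10* to *Serpina11*, at the low-coordinate end, the genes that passed 20 CPM were all highest by group mean in CD324+ or E18.5 cells and lowest in P2 cells or, for *Serpina6*, at E18.5. The 20 CPM limit was set on the highest group mean, so it favours groups in which serpins are abundant. From *Serpina3f* to *Serpina3i*, 4 genes that follow each other on the plus strand (chr12:104214544-104269372) were all highest in CD31+ cells, as was *Serpina3b* before them. Between this run and *Serpina3n*, which was highest at E18.5, lie *Serpina3j*, with no count, the nested *Serpina3k*, and *Serpina3m*. *Serpina3c*, between *Serpina3b* and *Serpina3f* on the opposite strand, had at most 3 counts in any E14.5 library.

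**Figure D4:**
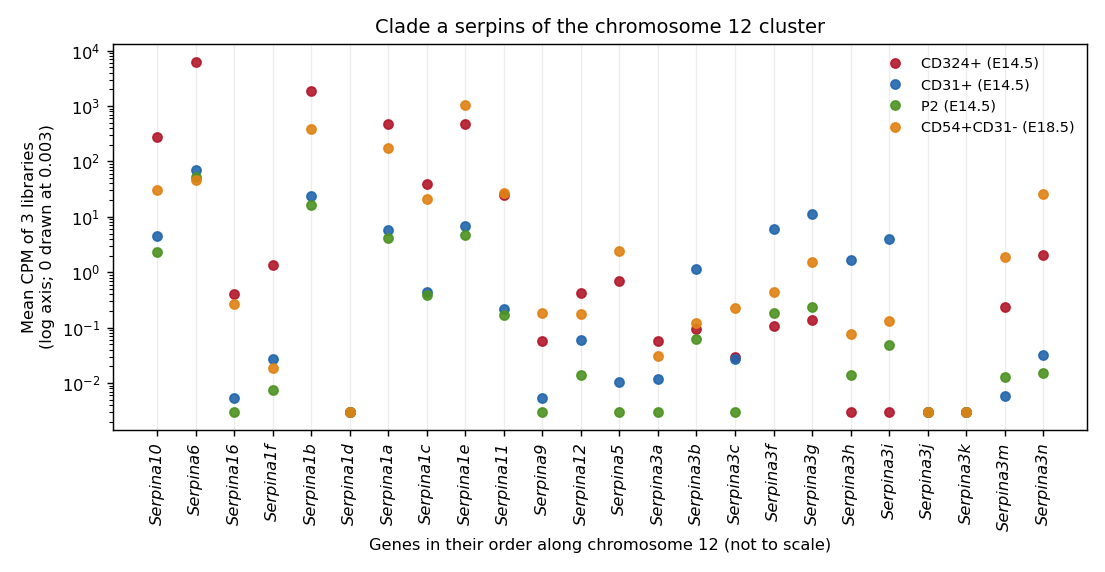
Mean CPM of 3 libraries per group (vertical log axis) for the 24 clade a genes of the chromosome 12 cluster, in gene order. The genes from *Serpina3f* to *Serpina3i* have their highest point in CD31+ cells, unlike the genes from *Serpina10* to *Serpina11*.

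The CD54+CD31- gate was compared between E18.5 and E14.5 to follow the same gate through late gestation. Of 31 serpins tested, 12 were higher at E18.5, 6 were lower and 13 were not called, beside 69.4% of all 15863 genes called (35.9% higher and 33.5% lower). The median log2 fold change was 0.33 for serpins and 0.033 for all genes. Without E18.5 replicate 1, 17 of 33 serpins tested were higher and 9 lower, beside 36.8% and 35.9% of all genes.

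The steepest fall was that of *Serpina6*. It had 12.3, 58.3 and 69.9 CPM at E18.5 against 6039 to 6691 CPM in the E14.5 libraries of the gate, a log2 fold change of -6.91 ± 0.73 (SE, adjusted p = 0.00022), or -6.46 without replicate 1. It went from 13.6 to 14.7% of *Alb* at E14.5 to 0.202 to 0.511% at E18.5. *Serpinf2* fell by 3.41 on the log2 scale, with 22.1, 179 and 242 CPM at E18.5, and by 2.90 without replicate 1. *Serpina10* fell by 2.98, with 5.11, 38.4 and 49.9 CPM, and by 2.49 without it. *Serpinf1* fell by 2.03, with 37.7, 138 and 181 CPM, and by 1.61 without it. In each of these genes all E18.5 libraries lay below all E14.5 libraries. *Serpina1f* also fell, from 1.37 to 0.0185 CPM.

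The *Serpina1* paralogues, whose sequences are printed above, had different levels at this age, and the difference between their changes was not tested. *Serpina1e* had 129, 1289 and 1718 CPM at E18.5, which made it the most abundant serpin there by group mean (33.8% of serpin CPM). In replicate 1 it was not, since *Serpinh1* had 373 CPM in that library. The change of *Serpina1e*, 1.31 ± 0.78 (SE, adjusted p = 0.17), was not called with all libraries but was 1.83 without replicate 1 (adjusted p = 5.4e-06). *Serpina1b* had 59.5, 441 and 655 CPM and was lower, at -2.12 ± 0.74 (SE, adjusted p = 0.039). Without replicate 1 the value was -1.62 (adjusted p = 4.8e-05). The call with all libraries was lost when any 1 CD324+ library or E18.5 replicate 2 was left out (adjusted p = 0.083 to 0.089) and with the authors' factors (0.052), and leaving out E18.5 replicate 3 gave -2.75. *Serpina1a*, at 21.3, 225 and 279 CPM, and *Serpina1c*, at 2.24, 30.5 and 29.3 CPM, were not called with all libraries (-1.28 and -0.75), and without replicate 1 *Serpina1a* was lower, at -0.76 (adjusted p = 0.00036). As a share of *Alb*, *Serpina1e* went from 1.02 to 1.09% at E14.5 to 4.85 to 5.38% at E18.5 in all 3 libraries, replicate 1 included, while *Serpina1b* went from 4.12 to 4.37% to 1.66 to 2.47%.

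Other secreted serpins were not called with all libraries. *Serpinc1* had 30.3, 303 and 411 CPM at E18.5 and was not called at -1.82 (adjusted p = 0.077), with all E18.5 libraries below those of E14.5, and was lower, at -1.31, without replicate 1 (adjusted p = 5.8e-05) and at -1.79 with DESeq2 (adjusted p = 0.018). *Serpina11* had 4.27, 31.1 and 46.0 CPM (0.33, adjusted p = 0.69, and 0.83 without replicate 1, adjusted p = 0.0015). *Serping1* had 54.0, 123 and 148 CPM and was not called in either fit (-0.29, adjusted p = 0.46, and 0.024 without replicate 1, adjusted p = 0.83). *Serpina7* was not called at -1.17, and was lower, at -0.68, without replicate 1 (adjusted p = 0.013).

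Of the 12 serpins that rose, 8 were of other clades than a. *Serpinb6b* had 299.8, 142 and 146 CPM at E18.5 against at most 2.58 CPM at E14.5 (6.88 ± 0.47, SE, adjusted p = 4.5e-05, and 6.42 without replicate 1). *Serpinb9* had 89.995, 49.6 and 49.97 CPM (5.59 ± 0.41, SE, adjusted p = 5.4e-05, and 5.22 without it). Neither gene overlapped between the groups.

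*Serpine2* had 72.1, 42.1 and 43.7 CPM (2.56 ± 0.25, adjusted p = 0.00017, and 2.25 without replicate 1). *Serpinh1* had 373, 256 and 249.7 CPM (2.29 ± 0.22, adjusted p = 0.00014, and 2.06 without it). *Serpinb6a* had 53.6, 38.7 and 35.9 CPM (1.73 ± 0.22, adjusted p = 0.00046, and 1.51 without it). All 3 were above every E14.5 library of the gate. *Serpina3n*, an acute phase serpin, had 3.37, 31.8 and 43.8 CPM against 1.47, 2.39 and 2.32 (3.85 ± 0.88, adjusted p = 0.007, and 4.37 without replicate 1), and *Serpina3g* was higher by 3.65, or 3.68 without it. Without E18.5 replicate 3, *Serpina3n* was at 3.27. *Serpinb1a*, at 6.32, 6.72 and 5.82 CPM, was not called at 1.91 (adjusted p = 0.11) or, without replicate 1, at 1.90 (adjusted p = 0.072), but was at 4.15 without CD324+ replicate 2 (adjusted p = 0.00024). *Serpinb2*, at 0.313 CPM on average, was not called at -0.96, or at -0.72 without replicate 1. Among serpins under 5 CPM, *Serpina3c*, *Serpina3m* (whose groups overlapped) and *Serpinb8* were higher, and *Serpinb9b*, with 0 counts in every E14.5 library of the gate, was at least 33.0-fold higher. *Serpinb9b* thus passed the low count filter through E18.5 alone, and a lower call was not possible.

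Replicate 1 of E18.5 divided the family. Relative to the mean of replicates 2 and 3 it held 0.075 to 0.236 times the level of *Serpina1c*, *Serpinc1*, *Serpina1a*, *Serpina1e*, *Serpina3n*, *Serpinf2*, *Serpina1b*, *Serpina11*, *Serpina10*, *Serpina6* and *Serpinf1*, and 0.398 times that of *Serping1*. It held 1.44 times the level of *Serpinb6a*, 1.48 times that of *Serpinh1*, 1.68 times that of *Serpine2*, 1.81 times that of *Serpinb9* and 2.08 times that of *Serpinb6b*. The lung epithelial sum was 25230 CPM in replicate 1 against 11860 and 11927, and the mesothelial sum 990 against 579 and 606 CPM. The mesenchymal sum, 4415 against 4106 and 3993 CPM, moved little between them. Of all genes, 35.9% were higher at E18.5 than at E14.5. Of the lung epithelial markers 13 of 14 were higher, and of the mesenchymal markers 11 of 11. Of the mesothelial markers 6 of 6 were higher, and of the endothelial markers 16 of 16 (276 to 346 against 53.6 to 85.2 CPM). The part of such cells in the rise of *Serpinb6b*, *Serpinb9*, *Serpine2* and *Serpinh1* was not tested.

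**Figure D5:**
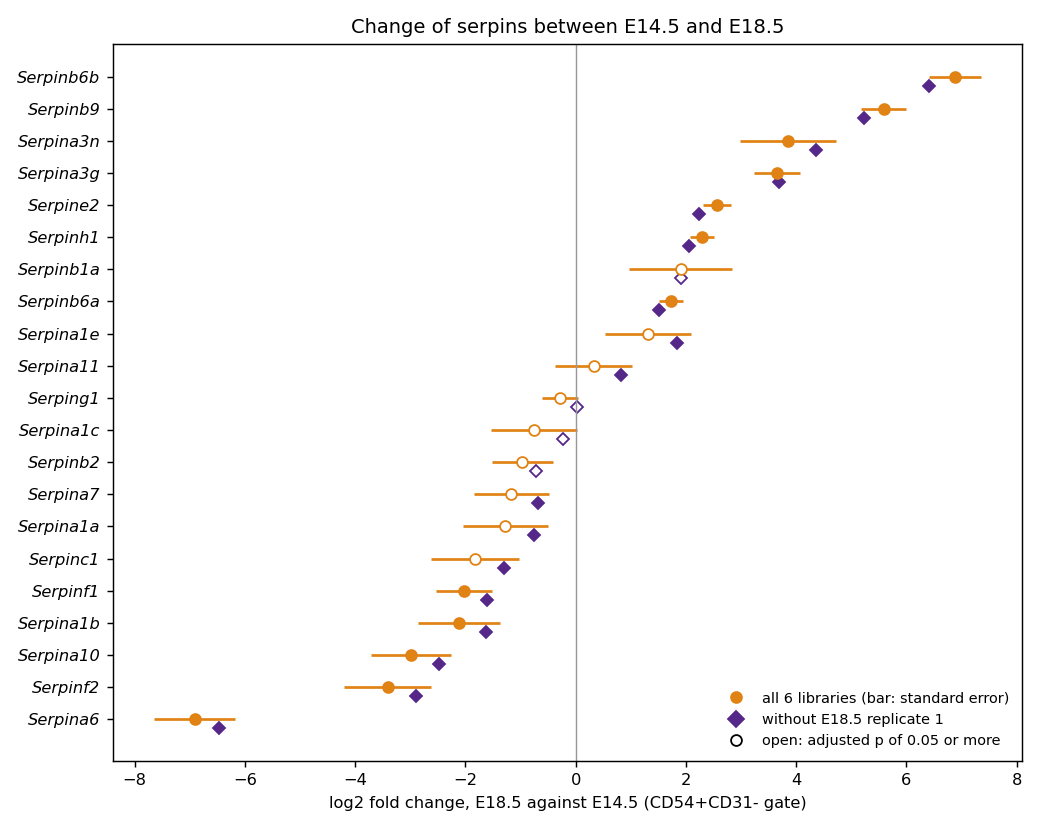
log2 fold change between E18.5 and E14.5 in the CD54+CD31- gate for 21 tested serpins with a mean of at least 5 CPM in some group, with all 6 libraries (circles, bars are standard errors) and without E18.5 replicate 1 (diamonds). Open symbols have an adjusted p of 0.05 or more, and *Serpina6* at -6.91 and *Serpinb6b* at 6.88 mark the ends.

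Most proteases of clotting and fibrin removal were highest in CD324+ cells at E14.5. Of the 21 coagulation and fibrinolysis proteases tested, 19 were lower and 0 higher in P2 than in CD324+ cells (median log2 fold change -6.55), beside 36.1% of all genes lower, and 18 were lower and 2 higher in CD31+ cells, beside 34.0% of all genes lower. *Plg*, the precursor of plasmin and the target of *Serpinf2*, was the most abundant, at 2476 ± 39.5 CPM in CD324+ cells (SD, n = 3), and *F2*, prothrombin, had 845 ± 49.3 CPM. The 2 that were higher were *Plat*, tissue plasminogen activator, and *Plau*, urokinase, with 98.7 ± 9.74 CPM of *Plau* in CD31+ cells against 1.31 ± 0.769 in CD324+ cells (6.20 on the log2 scale). At E18.5, 7 of 22 were lower and 1 higher, beside 33.5% and 35.9% of all genes, so that the lower count was near that of all genes. *C1ra* and *C1s1*, the complement proteases that *Serping1* blocks, were highest in CD324+ cells, at 51.7 and 13.1 CPM.

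Leukocyte and lysosomal proteases gave a mixed picture: 7 of 14 tested were higher and 5 lower in CD31+ than in CD324+ cells, beside 31.7% and 34.0% of all genes. In P2 cells 12 of 14 were lower and 0 higher than in CD31+ cells, beside 39.4% and 34.3% of all genes. *Elane*, the neutrophil elastase, averaged 40.7 ± 25.7 CPM in CD31+ libraries, and *Gzmb*, the target of *Serpinb9*, averaged at most 0.0985 CPM in any group. At E18.5, 4 of 13 tested were higher and 3 lower, beside 35.9% and 33.5% of all genes, and *Ctsh* was the most abundant at 749.98 ± 268 CPM.

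The collagen genes and collagen-modifying enzymes that work with *Serpinh1* were called in both directions, as were all genes. In CD31+ against CD324+ cells 9 of 22 were higher and 10 lower (median 0.12), beside 31.7% and 34.0% of all genes. *Col4a1*, a basement membrane collagen, had 1993 ± 328 CPM in CD31+ libraries and 81.9 ± 6.90 CPM in CD324+ libraries (mean and SD, n = 3). In P2 against CD324+ cells 17 were lower and 1 higher, beside 36.1% and 33.8% of all genes. At E18.5, 15 were higher and 5 lower (median 2.61), beside 35.9% and 33.5% of all genes, led by *Col6a1* at 6.30 on the log2 scale.

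Of the inhibitors outside the family, 21 of 25 were lower and 1 higher in P2 than in CD324+ cells (median -6.21), beside 36.1% and 33.8% of all genes, and 18 were lower and 3 higher in CD31+ cells, beside 34.0% and 31.7%. *Itih2*, of the inter-alpha-trypsin inhibitor heavy chains, led them in CD324+ cells at 5170 ± 298 CPM, and *Tfpi*, the tissue factor pathway inhibitor, led in CD31+ cells at 170 ± 8.76 CPM. At E18.5, 11 of 26 were higher and 6 lower, beside 35.9% and 33.5% of all genes, and *Spink5*, an epithelial inhibitor, had the largest rise at 9.18 on the log2 scale. Among 20 serpin receptors and cofactors, 16 were lower and 2 higher in P2 than in CD324+ cells, 10 lower and 8 higher in CD31+ cells, and 12 higher and 5 lower at E18.5, beside the same shares of all genes as for the inhibitors. *Lrp1*, which clears serpin-protease complexes, had 761 ± 83.3 CPM in CD324+ cells and 340 ± 144 CPM at E18.5 (SD, n = 3).

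The remaining serpins were scarce. Of the 12 without a count, 4 are the covered genes described above, and the other 8 (*Serpina3j*, *Serpinb3a*, *Serpinb3d*, *Serpinb6d*, *Serpinb6e*, *Serpinb9c*, *Serpinb9d* and *Serpinb9f*) had 0 counts in every library, which allows up to 0.0279 CPM in CD324+, 0.0172 in CD31+, 0.0209 in P2 and 0.014 at E18.5 if 3 counts over a group are taken as the limit, for counting error only. The limit does not cover reads shared between genes, which make up 78.7% of the possible 50-base reads of *Serpinb9f* and 30.8% of those of *Serpinb9d*. The 27 genes with counts but a mean under 5 CPM peaked at 3.99 CPM (*Serpina3i*). Of them, 6 were highest in CD324+ cells, 9 in CD31+ cells and 12 at E18.5, with the same split not counted over all genes. *Serpini1* showed no call in any comparison, with 10 to 51 counts in every library. Of clade b, 18 of 26 genes had counts but 6 were tested at E14.5 and 7 at E18.5, so the statements on this clade rest on those few genes.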

How the data were processed

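RNA from sorted Ter119-CD45- fetal liver cells was made into libraries by the SMARTer Stranded Total RNA-Seq Pico method after removal of ribosomal cDNA, in 12 samples. According to the study's methods and the submitters' processing notes, the authors trimmed reads with cutadapt 1.11, aligned them to GRCm38 (mm10) with STAR 2.5.0a, counted them per gene with featureCounts 1.4.6-p3 and normalized with DESeq2 in R 3.5.1. The strand setting and the treatment of overlapping genes are not given in the sources used here. The authors deposited, for each sample, raw counts per gene and a normalized score, which is the count times 1 factor per library. Counts were used for all results and the score only to recover those factors.

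Libraries held 40714017 to 64368883 counts, and no replicate pair agreed within sampling noise. Limits for a count of 0 take 3 counts over a group. Groups came from the sample titles. Genes were filtered with filterByExpr, scaled by TMM and tested with edgeR 4.0.16 (quasi-likelihood, R 4.3.3) over all genes, with Benjamini-Hochberg adjustment and a threshold of 0.05. The 9 libraries of E14.5 were fitted together, and the E18.5 comparison used 6 libraries, so that the 4 comparisons share groups. Scripts were tested on simulated data. CPM used TMM over all 12 libraries, and levels of different genes were compared per kilobase of exon not shared with other genes.

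The members, the lists of partner genes and the markers were chosen with earlier results of these data known. Serpins reaching a mean of 5 CPM in any group were described singly, and those reaching 20 CPM with every library. Other serpins were given by counts and ranges, and some were named as examples. One member counted in the totals is not reported here. *Klkb1*, listed under 2 gene identifiers, was left out of its list. Alternatives were DESeq2 1.42.0, other size factors, other filters, other sets of libraries in the fit, the replicate number as a block, and each library left out in turn. CD31+ and CD324+ libraries of the same number were correlated in their deviations from the group means (0.342, 0.263 and 0.127 for numbers 1, 2 and 3). Other comparisons did not exceed 0.1 in every pair. The main fits held no pairing in any comparison, and the replicate number entered only in the block alternative.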

Additional observations from a re-analysis of the deposited data

How the results depend on the processing

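Among serpins that reached a mean of 5 CPM in some group, no direction of a called serpin was reversed by any alternative run. Directions of called serpins under 5 CPM were not followed through the alternatives. Requiring at least 10 counts in every library left 17 serpins tested in the E14.5 comparisons and 23 at E18.5, and so gave 12 lower in P2 than in CD324+ cells (38.0% of all genes), 5 higher in CD31+ than in CD324+ cells (33.9%) and 7 higher at E18.5 (35.1%). DESeq2 tested 45 serpins at E18.5 and called 19 higher (32.9% of all genes). With all 12 libraries in 1 fit, the P2 group had 14 of 36 serpins below the CD31+ group (36.2% of all genes), and the cause was not tested. With the authors' factors the mean summed serpin level of P2 cells was 126 CPM in place of 159, and the median of all genes moved by -0.26 and -0.37 for P2 against CD324+ and CD31+ cells, by 0.11 for CD31+ against CD324+ cells and by 0.23 at E18.5. Leaving out each library in turn gave 2 higher and 17 to 21 lower for P2 against CD324+, 0 to 1 higher and 19 to 22 lower for P2 against CD31+, 11 to 12 higher and 15 to 18 lower for CD31+ against CD324+, and 11 to 17 higher and 5 to 9 lower at E18.5, while 26.2 to 36.8% of all genes were called higher and 29.4 to 37.7% lower. For single serpins that reached 5 CPM, 1269 values kept their call, 16 gained one and 32 lost one across all alternatives.

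With the replicate number as a block, 2 serpins were higher and 18 lower in P2 than in CD324+ cells, 0 and 22 in P2 than in CD31+ cells, 12 and 15 in CD31+ than in CD324+ cells, and 12 and 6 at E18.5, beside 32.0 to 34.8% of all genes higher and 31.5 to 39.3% lower. *Serpinb1a* was called higher at E18.5 under the block, at 2.81 (adjusted p = 0.047), as it was with DESeq2 (1.91, adjusted p = 0.046) and without CD324+ replicate 2 (4.15). Whether libraries of the same number came from the same litter is not stated in the sources used here and was not tested. Correlations between libraries of the same number were -0.024 to 0.090 for P2 and CD324+ and 0.014 to 0.34 for P2 and CD31+. In the E18.5 comparison they were 0.017 to 0.067.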
